A study of Mus musculus with 5 samples.

Results

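The Sox10 locus was taken as all listed peaks that overlap a window of 120 kb on mouse chromosome 15, from 78930000 to 79050000 on the mm9 build. The window holds Sox10 on the minus strand, at about 78.985 to 78.995 Mb, and the flanks in which its distal enhancers lie. It contained 44 of the 258727 peaks of the series, taken from 5 chromatin immunoprecipitation sequencing (ChIP-seq) lists of PDGFB-induced mouse gliomas collected 25 days after virus injection. Olig2cKO tumours carried Olig2f/f and P53f/f, and control tumours carried P53f/f without Olig2f/f, both on a mixed C57Bl/6;129Sv;CD-1 background. The libraries were acetylated lysine 27 of histone H3 (H3K27ac) in Olig2cKO and in control tumours, trimethylated lysine 4 of histone H3 (H3K4me3) in Olig2cKO and in control tumours, and Olig2 in control tumours. Each was 1 library. The sources used here do not give what drove recombination of the floxed alleles, nor how many tumours went into a library. The Olig2 list used here comes from control tumours, so whether Olig2 was lost in Olig2cKO tumours was not checked.

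Sox10 encodes an HMG-box transcription factor of the neural crest and of the oligodendrocyte lineage. It is kept on from oligodendrocyte precursors to myelinating cells, where it activates myelin genes. Olig2, a basic helix-loop-helix factor of the same lineage, is known in mouse to act upstream of Sox10 in oligodendrocyte precursors through a conserved distal enhancer that lies upstream of the gene. H3K27ac marks active enhancers and promoters, and H3K4me3 marks mainly promoters.

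Merging overlapping peaks of all 5 lists gave 14 regions, numbered 1 to 14 in genome order. Regions 1 to 9 lay beyond the 3′ end of Sox10 and regions 10 to 14 upstream of its start, since the gene runs towards lower positions. In the GRCm38.p6 gene table the next gene on the 3′ side is Polr2f, which encodes a subunit shared by the RNA polymerases, followed by 1700088E04Rik and Micall1. On the upstream side it lists the non-coding RNA genes Gm10863, Gm52189 and Gm30527, and then Pick1. Positions of these neighbours on mm9 were not used here, so no peak is assigned to any of them. Distances to Sox10 are to the nearest kb, because the position of the gene is rounded to 1 kb.

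**Figure D1:**
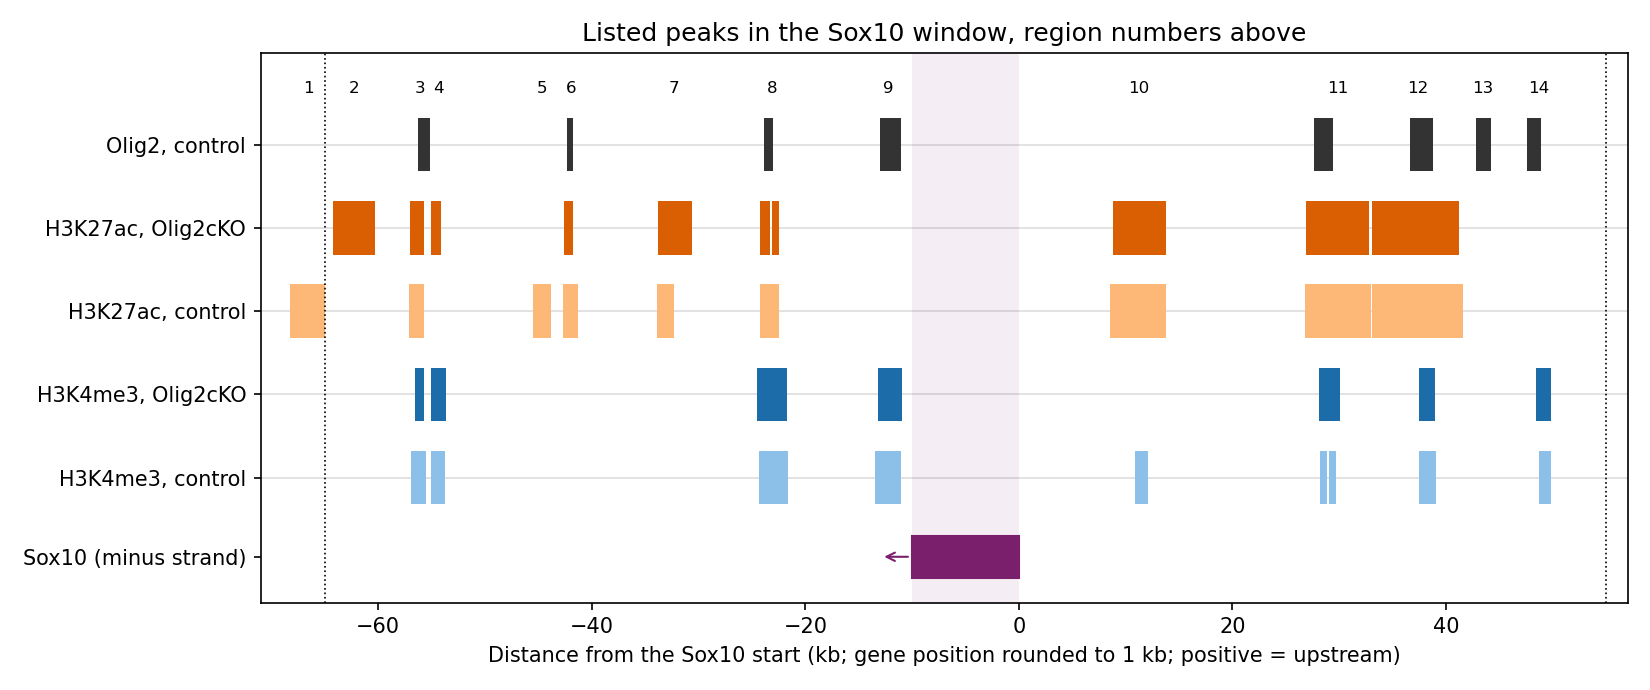
Peaks of the 5 lists (boxes, 1 row per list) by distance from the Sox10 start in kb, with positive values upstream, the gene drawn below and shaded, and region numbers above. Dotted lines mark the ends of the window. No list has a box over the gene, the 3 widest H3K27ac boxes of each genotype lie upstream of it, and the Olig2 boxes lie on both sides.

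No peak of any list lay on Sox10 itself. The stretch without a peak in all 5 lists ran from 78984062 to 79003579, a length of 19.5 kb, and was the longest in the window. It began 1 kb beyond the 3′ end of the gene and ended 9 kb upstream of its start, so it took in the whole gene and the bases next to its start. For single lists the stretch was 31.3 kb for H3K27ac in Olig2cKO tumours and 31.1 kb in control tumours. It was 39.0 kb for H3K4me3 in Olig2cKO tumours, 22.0 kb for H3K4me3 in control tumours and 38.7 kb for Olig2. Stretches of this size are common in these lists: 29.5% of the 95622 gaps between neighbouring regions of the genome were at least as long as 19.5 kb. These gaps include stretches with no gene, and how often a gene and its start lack a peak was not counted. The numbers in the names of the peaks ran through the window with 0 missing in every list. This cannot show whether peaks were removed before they were numbered. An empty stretch means that no peak was listed there, not that the mark was absent. No peak of the 4 H3K27ac and H3K4me3 lists was wider than 9285 bp, and whether this bears on the empty stretch was not tested.

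The nearest acetylated region upstream of the gene, region 10, began 9 kb from its start. Its H3K27ac peak was 5001 bp wide in Olig2cKO tumours (79003783 to 79008783) and 5167 bp wide in control tumours (79003580 to 79008746). The edges of these peaks differed by 203 bp on the side of the gene and by 37 bp on the far side, and 95.4% of their joint length was shared. The score, which is the authors' own measure from the peak caller and is not scaled between libraries, was 445 in the Olig2cKO list and 686 in the control list. Of the Olig2cKO list 18.0% of peaks scored higher, and of the control list 11.7%. Region 10 had no Olig2 peak. An H3K4me3 peak of 1218 bp (79005890 to 79007107, score 162) was listed inside it in control tumours, covering 23.6% of the control H3K27ac peak, and none in Olig2cKO tumours. That was the only H3K4me3 peak of the window without a partner in the other genotype, and 69.2% of the control H3K4me3 list scored higher. Only 0.533% of the 95655 regions of the genome had this combination of the 5 lists.

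Region 11, 27 kb upstream of the start, had the highest H3K27ac score of the window in control tumours. Its H3K27ac peak spanned 5842 bp in Olig2cKO tumours (79021928 to 79027769, score 438) and 6167 bp in control tumours (79021812 to 79027978, score 781). Of those lists 18.4% and 9.22% of peaks scored higher. The 2 H3K27ac peaks shared 94.7% of their joint length. An Olig2 peak of 1798 bp (79022629 to 79024426) lay wholly inside both, in the part nearer to Sox10, with its middle 1321 bp on the gene's side of the middle of the Olig2cKO H3K27ac peak and 1368 bp on that side in the control one. With a score of 256 it stood above all but 9.37% of Olig2 peaks. H3K4me3 was listed there as 2 small peaks in each genotype, of 837 and 1104 bp in Olig2cKO tumours and of 646 and 627 bp in control tumours. The gap between them was 44 bp in Olig2cKO and 227 bp in control tumours, and the Olig2 peak lay across both gaps. These were weak peaks: 76.6% and 84.6% of the Olig2cKO list, and 96.8% and 75.7% of the control list, scored higher.

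Region 12, 33 kb upstream, carried the strongest Olig2 peak and the widest acetylation of the locus. The Olig2 peak spanned 2172 bp (79031599 to 79033770) with a score of 475, and 1.8% of the 39201 Olig2 peaks scored higher. The H3K27ac peak around it was 8189 bp wide in Olig2cKO tumours (79028041 to 79036229) and 8484 bp wide in control tumours (79028099 to 79036582), and 95.2% of the joint length was shared. Only 0.0894% of the Olig2cKO list and 0.0565% of the control list were wider. The scores were moderate, at 174 in the Olig2cKO list and 137 in the control list. Of the whole lists 48.7% and 59.5% of peaks scored higher. Among the 95 Olig2cKO peaks of at least 8 kb the median score was 83.2, and 9.47% of them scored higher than region 12. Among the 88 control peaks of at least 8 kb the median was 86.7, and 21.6% scored higher. An H3K4me3 peak of 1568 bp in Olig2cKO tumours and 1556 bp in control tumours covered 61.4% and 59.8% of the Olig2 peak in those genotypes. Its edges differed between genotypes by at most 36 bp, the closest match of any H3K4me3 peak of the window. Regions 11 and 12 were separated by 271 bp without acetylation in Olig2cKO tumours and 120 bp in control tumours, so the 2 peaks together made an almost unbroken acetylated stretch upstream of Sox10.

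Farther upstream, Olig2 was listed without acetylation. Region 13, 43 kb from the start, was an Olig2 peak of 1399 bp with a score of 51.9, close to the lowest score of its list (50). It overlapped no histone peak in either genotype, as did 17.1% of all Olig2 peaks. Region 14, 48 kb from the start, joined an Olig2 peak of 1350 bp (score 87.6) to an H3K4me3 peak of 1389 bp in Olig2cKO tumours and 1122 bp in control tumours. The H3K4me3 peak lay on the far side, and covered 40.3% of the Olig2 peak in Olig2cKO tumours and 19.3% in control tumours. No H3K27ac peak was listed at region 14 in either genotype.

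On the other side of Sox10 the nearest listed peaks were those of region 9, whose near edge lay 1 kb beyond the 3′ end of the gene. Olig2 and H3K4me3 lay there on nearly the same bases, again with no H3K27ac peak in either genotype. The Olig2 peak (78981960 to 78983943, score 171) was covered over its whole length by H3K4me3 in Olig2cKO tumours (78981845 to 78984061) and over 98.7% of it in control tumours (78981571 to 78983917). In Olig2cKO tumours both edges of the H3K4me3 peak lay within 300 bp of the Olig2 edges, as was so for 14.1% of all Olig2 peaks with that list. The H3K4me3 scores were low, at 107 in the Olig2cKO list and 142 in the control list, with 79.6% and 72.5% of their lists above them. H3K4me3 in both genotypes with H3K27ac in neither, found at regions 9 and 14, was the state of 4.68% of the 39201 Olig2 peaks.

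Region 8, 12 kb beyond the 3′ end, had the highest H3K4me3 score of the window. The H3K4me3 peak was 2860 bp wide in Olig2cKO tumours (78970439 to 78973298, score 2404.5) and 2726 bp wide in control tumours (78970670 to 78973395, score 2219), and 4.09% and 6.63% of their lists scored higher. Inside it lay an Olig2 peak of 871 bp (score 156). Acetylation was listed there as 2 peaks in Olig2cKO tumours, of 931 and 641 bp (scores 104 and 75.8), and as 1 peak of 1709 bp in control tumours (score 225). Of the Olig2cKO H3K27ac list 68.8% and 81.6% of peaks scored higher, and of the control list 41.6%. The outer edges of the Olig2cKO peaks lay within 31 bp of the control edges. The 165 bp between the 2 Olig2cKO peaks fell under the Olig2 peak, which reached 588 bp to one side of the gap and 118 bp to the other.

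Regions 3 to 7 lay from 21 to 45 kb beyond the 3′ end. Region 3 carried all 5 lists. Its H3K27ac peak was 1299 bp wide in Olig2cKO and 1389 bp in control tumours, with scores of 227 and 404. Of those lists 38.8% and 24.2% of peaks scored higher. Its Olig2 peak of 1081 bp (score 141) was centred just past the edge of the acetylated peak nearer to Sox10 in each genotype. Its H3K4me3 peak scored 419 in the Olig2cKO list and 94.1 in the control list, and 43.6% and 83.0% of those lists scored higher. Region 4, whose H3K4me3 peaks scored 868 in Olig2cKO and 1048 in control tumours, had an H3K27ac peak of 941 bp in Olig2cKO tumours (score 72.2) and none in control tumours. Of the H3K4me3 lists 25.9% and 24.0% of peaks scored higher, and of the Olig2cKO H3K27ac list 83.6%.

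Region 6 had an Olig2 peak of 555 bp (score 67.2) wholly inside H3K27ac peaks of 845 bp in Olig2cKO tumours (score 68.8) and 1392 bp in control tumours (score 172), with no H3K4me3. Here 85.6% of the Olig2cKO list and 51.0% of the control list scored higher. Region 7 had H3K27ac alone, as a peak of 3138 bp in Olig2cKO tumours (score 309) and 1676 bp in control tumours (score 212). Of those lists 28.2% and 43.6% of peaks scored higher. The Olig2cKO peak reached 1605 bp farther towards Sox10. Region 5 was an H3K27ac peak of 1660 bp listed in control tumours alone, with a score of 52.7 that 97.5% of the control list exceeded.

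At the far edge, region 2 was an H3K27ac peak of 3918 bp listed in Olig2cKO tumours alone (78930754 to 78934671, score 110). Region 1 was an H3K27ac peak of control tumours alone (78926691 to 78930009, score 63.8) that entered the window by 10 bp. It also held an Olig2 peak (score 52.5) that lay 1.4 kb outside. The end of region 1 and the start of region 2 were under 1 kb apart. Just outside the other edge, H3K27ac peaks began 2.7 kb from the window in Olig2cKO tumours (score 348) and 2.4 kb from it in control tumours (score 499). An Olig2 peak (score 75.4) began 4.1 kb from that edge. H3K4me3 began 8.8 kb from it in Olig2cKO tumours (score 1559) and 3.3 kb from it in control tumours (score 125).

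**Figure D2:**
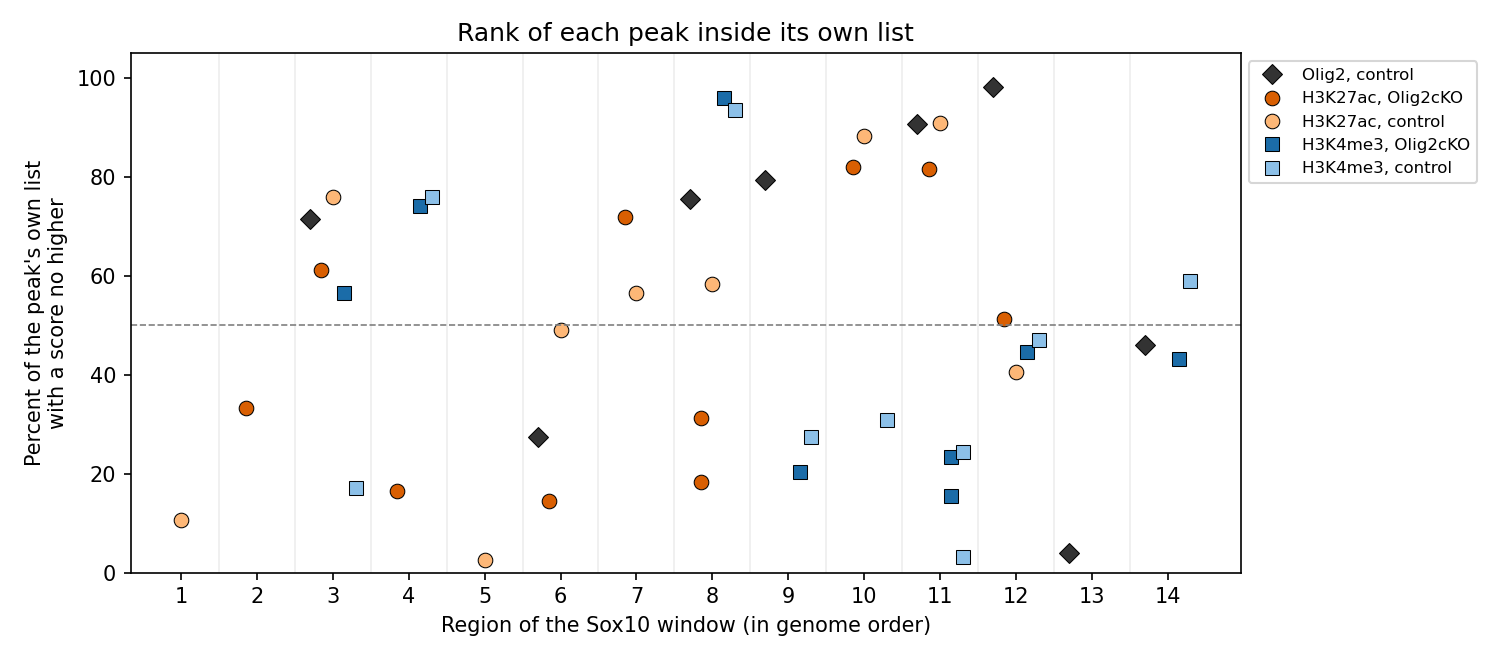
For each peak of the window, by region, the percent of its own list with a score no higher, with the list median dashed at 50. Olig2 reaches 98.2% at region 12, H3K4me3 95.9% (Olig2cKO) and 93.4% (control) at region 8, and H3K27ac 82.0% at region 10 (Olig2cKO) and 90.8% at region 11 (control).

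The lists differed in where their strong peaks lay, as the plot of ranks inside each list shows. H3K27ac had its widest peaks upstream of Sox10, where 3 peaks covered 19.0 kb in Olig2cKO tumours and 3 peaks covered 19.8 kb in control tumours. Its highest scores also lay upstream, at regions 10 and 11. The widest peak, at region 12, scored lower than those of regions 3 and 7 on the 3′ side in both genotypes. Beyond the 3′ end, 7 peaks covered 11.7 kb in Olig2cKO tumours and 6 peaks covered 7.8 kb in control tumours. H3K4me3 had its highest scores on the 3′ side. Upstream its highest score was 267 in Olig2cKO and 502 in control tumours, at regions 12 and 14. Olig2 had 4 peaks on each side, and its 2 highest scores lay upstream, at regions 12 and 11. Scores above the list median were reached by 5 of 8 Olig2 peaks. The same held for 5 of 10 H3K27ac peaks in Olig2cKO and 5 of 9 in control tumours, and for 3 of 8 H3K4me3 peaks in Olig2cKO and 3 of 9 in control tumours.

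The comparison of genotypes asked which marked sites at Sox10 differ between Olig2cKO and control tumours. Peaks of the 2 genotypes that overlapped by at least 1 bp were counted as partners. For H3K27ac, 2 of 10 Olig2cKO peaks (20.0%, 95% exact binomial interval 2.52 to 55.6) had no control partner, against 30.9% of the whole Olig2cKO list. Of 9 control peaks, 2 (22.2%, 2.81 to 60.0) had no Olig2cKO partner, against 17.9% of the whole control list. These were regions 2 and 4 in Olig2cKO and regions 1 and 5 in control tumours. For H3K4me3, 0 of 8 Olig2cKO peaks lacked a control partner (0 to 36.9), against 21.4% of the list, and 1 of 9 control peaks (11.1%, 0.281 to 48.2) lacked an Olig2cKO partner, against 8.13%. The share over the whole list lay inside the interval in all 4 cases. With 8 to 10 peaks the intervals are wide, so they cannot decide whether the locus differs from its lists. Each genotype had 1 library per mark, so no difference between genotypes has a replicate check, and the number of reads behind the lists is unknown.

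Measured in bases, H3K27ac covered 30.7 kb of the window in Olig2cKO and 27.7 kb in control tumours, of which 24.2 kb were common. With the window trimmed by 20 kb at each end the order turned, with 18358 bp in Olig2cKO and 19179 bp in control tumours. With the upper 50% of each list by score the order held, with 23469 bp in Olig2cKO and 16108 bp in control tumours. The wide peak of region 12 was then kept in Olig2cKO tumours alone. The common bases of the whole window were 78.6% of the Olig2cKO bases and 87.3% of the control bases, where the whole lists shared 62.8% and 76.0%. H3K4me3 covered 12.3 kb in Olig2cKO and 13.0 kb in control tumours, with 10.8 kb in common. This was 88.2% and 83.5%, where the whole lists shared 73.8% and 91.1%. The common share of the locus was thus higher than that of the list for H3K27ac in both genotypes and for H3K4me3 in Olig2cKO tumours, and lower for H3K4me3 in control tumours. With 1 library each, these differences were not tested.

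Of 6 H3K27ac peaks with exactly 1 partner each way, 1 was wider in Olig2cKO tumours (region 7, by 1462 bp). The other 5 were narrower there by 90 to 547 bp, and the 6 differences (Olig2cKO minus control) had a median of -230.5 bp. Over all 43120 such pairs of the lists the median was 73.0 bp, and 57.0% were wider in Olig2cKO tumours. Of 8 H3K4me3 pairs, 6 were wider in Olig2cKO tumours, with a median difference of 111.5 bp. Over all 35250 pairs that median was 150.0 bp, and 76.7% were wider in Olig2cKO tumours. Peak widths can depend on the depth of a library, and the part of depth in these differences was not tested.

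**Figure D3:**
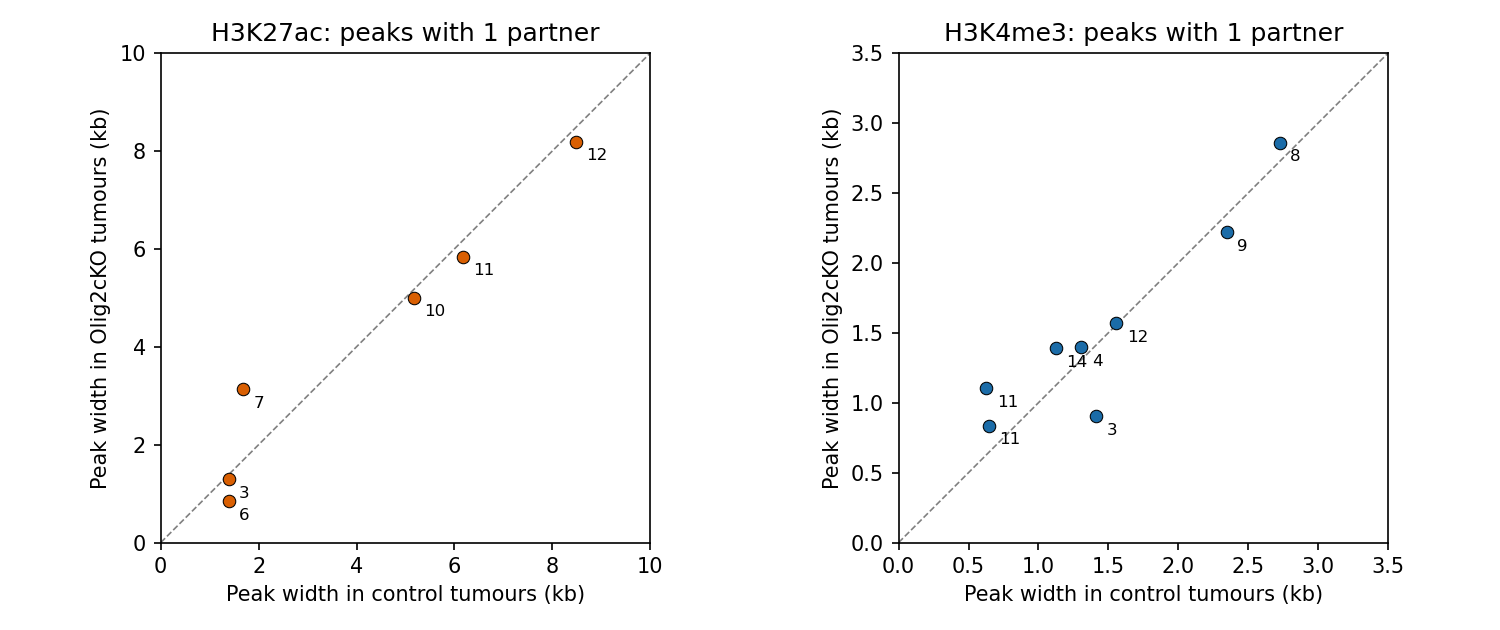
Width in Olig2cKO tumours (vertical axis, kb) against width in control tumours (horizontal axis, kb) for peaks with exactly 1 partner, 1 point per pair with its region number, and the dashed line at equal width. For H3K27ac only region 7 lies above the line, and for H3K4me3 6 of 8 pairs do.

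Of the 8 Olig2 peaks, 5 overlapped H3K27ac in Olig2cKO tumours (62.5%, 24.5 to 91.5), against 70.2% of all Olig2 peaks. The same 5, at regions 3, 6, 8, 11 and 12, overlapped H3K27ac in control tumours, against 68.9% of all Olig2 peaks. H3K4me3 was listed at 6 of 8 in Olig2cKO tumours (75.0%, 34.9 to 96.8), against 58.1%, and at the same 6 in control tumours, against 55.6%. Thus 0 of 8 Olig2 peaks carried a mark in 1 genotype alone (0 to 36.9), against 21.7% of all Olig2 peaks, a share inside that interval. With 8 peaks the interval is too wide to decide whether the locus differs from the list. The count of 0 did not hold with the upper 50% of each list by score. H3K27ac was then left at the Olig2 peaks of regions 3, 11 and 12 in Olig2cKO tumours. In control tumours it was left at those of regions 3, 8 and 11. H3K4me3 was left at 2 Olig2 peaks in Olig2cKO tumours (regions 3 and 8) and at 1 in control tumours (region 8). In the full lists, regions 3, 8, 11 and 12 had both marks in both genotypes, the state of 42.5% of all Olig2 peaks. Region 6 had H3K27ac in both genotypes and no H3K4me3, the state of 14.0%. With the upper 50% of each list by score, genotype-only peaks at regions 3, 8 and 12 lay on an Olig2 peak. In the full lists, the peaks of 1 genotype alone lay at regions 1, 2, 4, 5 and 10. None of these overlapped an Olig2 peak of the window. The H3K27ac peak of region 1 overlapped the Olig2 peak outside it. Most genotype-only peaks of the whole lists also carried no Olig2 peak: 85.8% of those of H3K27ac in Olig2cKO and 74.2% in control tumours, and 76.0% of those of H3K4me3 in Olig2cKO and 54.8% in control tumours.

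Read from the histone lists, 6 of 10 H3K27ac peaks in Olig2cKO tumours and 6 of 9 in control tumours carried an Olig2 peak, against 42.5% and 49.5% of their lists. For H3K4me3 this was 7 of 8 in Olig2cKO and 7 of 9 in control tumours, against 50.3% and 55.7%. For H3K4me3 the exact intervals of the locus (47.3 to 99.7 in Olig2cKO and 40.0 to 97.2 in control tumours) still held these shares, as did those for H3K27ac (26.2 to 87.8 and 29.9 to 92.5). These intervals are wide too, so they cannot decide whether the locus differs from its lists. The counts are of histone peaks. The 2 Olig2cKO H3K27ac peaks of region 8 share 1 Olig2 peak, as do the 2 H3K4me3 peaks of region 11 in each genotype. The control H3K27ac count includes region 1, whose Olig2 peak lay outside the window. H3K27ac peaks without H3K4me3 of the same genotype numbered 4 of 10 in Olig2cKO and 4 of 9 in control tumours, against 50.3% and 49.8%. In control tumours 3 of these, at regions 5, 6 and 7, lay 1.18 and 7.33 kb apart and, stitched, formed a stretch of 13.2 kb with 3 peaks. In Olig2cKO tumours regions 6 and 7 alone formed one of 11.9 kb with 2 peaks. The control stretch includes the weak peak of region 5. No stretch of 3 peaks was left (0) with the upper 50% of each list by score, where the control peaks of regions 5 and 6 both dropped out. The same held when gaps of at most 5 kb were allowed, where regions 5 and 6 stayed joined and region 7 was split off.

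**Figure D4:**
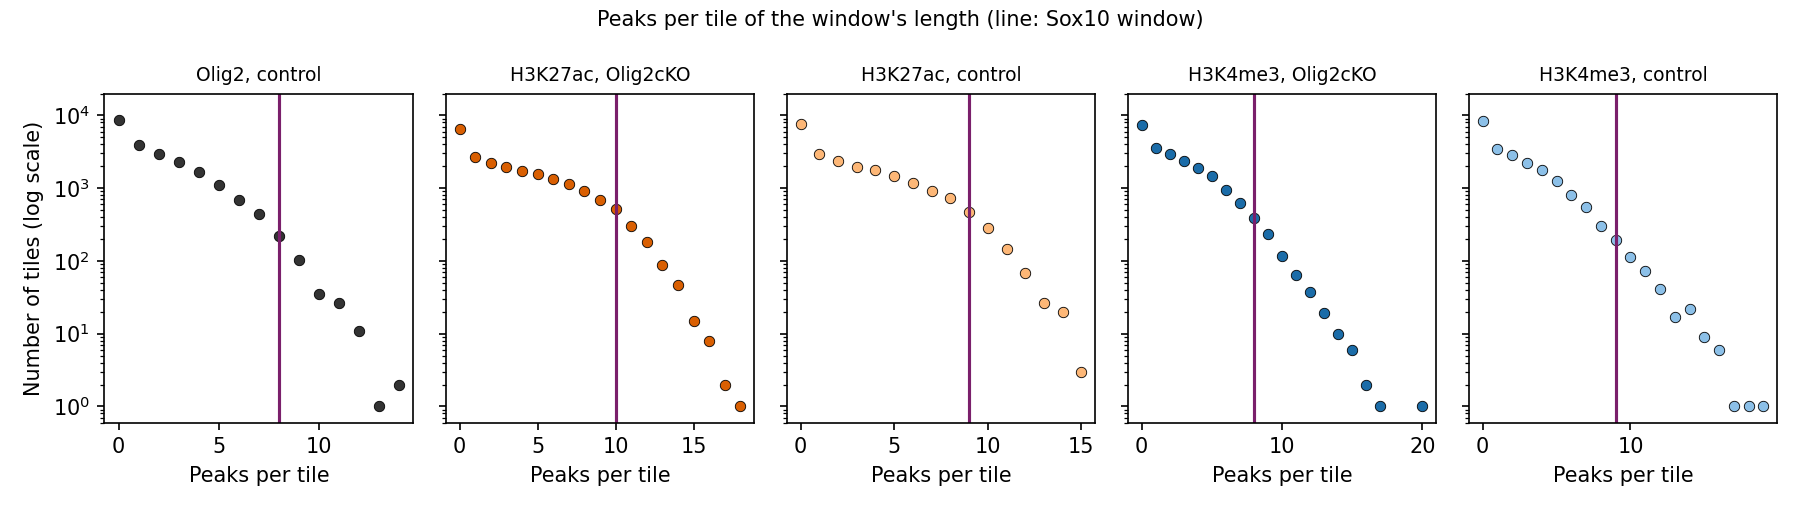
Number of genome tiles of the window's length (vertical axis, log scale) by the number of peaks in a tile (horizontal axis), 1 panel per list, with the Sox10 window as a vertical line. The window holds 8 Olig2 peaks, 10 and 9 H3K27ac peaks and 8 and 9 H3K4me3 peaks (Olig2cKO, then control), and lies in the upper tail of each panel.

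The locus was dense in peaks. The genome was divided into 21994 tiles of the length of the window, and a tile held a median of 9 peaks of the 5 lists together, where the Sox10 window held 44. Of all tiles 1.48% held as many or more. For Olig2, 1.8% of tiles held 8 or more peaks, with a median of 1 per tile. For H3K27ac, 5.27% held 10 or more in Olig2cKO and 4.63% held 9 or more in control tumours. For H3K4me3, 4.0% held 8 or more in Olig2cKO and 2.18% held 9 or more in control tumours. Tiles include stretches with no gene, and the window was chosen around a known gene, so these shares describe the locus and test nothing.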

How the data were processed

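ChIP-seq was done on mouse gliomas, with 1 library per antibody and genotype. An allele that the labels give for both genotypes is not reported here. Per the submitters' processing notes, CASAVA, Bowtie2 and MACS were used with the build mm9; the sources used here give no versions, no settings and no word on an input library. Each deposited list gives the start, the end and the MACS score of each peak of 1 library. The lowest score was 50 to 50.02 in every list, the value that −10 log10 of a p-value takes at 1e-05. The authors' scores are not scaled between libraries. They are printed for both genotypes, but served only to rank peaks within a list. A difference in score between genotypes is not evidence of a difference in signal. Depth is unknown.

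Overlaps of at least 1 bp were counted with pandas 2.3.3 and numpy 2.4.6 under Python 3.11.15, tested on simulated lists, and checked against bedtools 2.31.1 (20 comparisons, 0 differences). Intervals are exact binomial (Clopper-Pearson, scipy 1.17.1), cover counting error only, and treat neighbouring peaks as independent. No test between genotypes was made. Every peak of the window is given, with positions counted from 1. The window and the measures were chosen with earlier results of these data known. Figures were drawn with matplotlib 3.10.9.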

Additional observations from a re-analysis of the deposited data

How the results depend on the processing

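Of 82 recomputed values, 47 stayed within 1.5 times the value given above and 35 moved further. Most of the moves follow from fewer peaks or a smaller window. Changes of sign numbered 0, but nearly all these values are counts or lengths, which cannot change sign. A turned order of the genotypes, as for H3K27ac coverage below, is not counted as one. With the upper 50% of each list by score, the peaks in the window were 5 for Olig2, 5 and 5 for H3K27ac and 3 and 3 for H3K4me3 (Olig2cKO, then control). Peaks without a partner were then 1 and 1 for H3K27ac (regions 12 and 8) and 1 and 1 for H3K4me3 (regions 3 and 14). Those of regions 3, 8 and 12 lay on Olig2 peaks kept by the same cut. Olig2 peaks on H3K27ac were 3 and 3, at regions 3, 11 and 12 in Olig2cKO and regions 3, 8 and 11 in control tumours. On H3K4me3 they were 2 and 1, at regions 3 and 8 in Olig2cKO and region 8 in control tumours. H3K27ac then covered 23469 bp in Olig2cKO and 16108 bp in control tumours, and H3K4me3 5161 and 5155 bp. The median width difference of H3K27ac pairs was -128.0 bp over 4 pairs, an alternative added after the data were seen. The main width comparison of both marks was not among the planned results either.

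With the window trimmed by 20 kb at each end, the peaks were 4 for Olig2 and 4 and 5 for H3K4me3, and those without a partner 0 and 1 for H3K27ac. Olig2 peaks on each of the 4 histone lists were 3. Covered lengths were 5208 bp for Olig2, 18358 and 19179 bp for H3K27ac, which turned the order of the genotypes, and 7018 and 7564 bp for H3K4me3. With partners allowed a gap of up to 1 kb, H3K27ac peaks without a partner were 0 in Olig2cKO and 1 in control tumours. With lists cut to equal length these counts were 1 in Olig2cKO and 3 in control tumours. With the middle of a peak in the window, the control count was 1, because region 1 dropped out. The stitched control stretch of 3 peaks was lost (0) at a stitching distance of 5 kb and with the upper 50% of each list, the second added later. With an overlap of 50% of the shorter peak, Olig2 peaks on H3K27ac were 4 and 4 and on H3K4me3 5 and 5, and the counts of peaks without a partner were the same. Read numbers are unknown, so peaks missing from a list cannot be told from peaks under its threshold. No paired analysis was possible because each group had 1 library.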
